A study of Mus musculus with 3 samples.

Results

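Expression of 10 genes of the Notch pathway was described in single nuclei of the mouse abdominal aorta: the 4 receptors Notch1, Notch2, Notch3 and Notch4, the ligands Jag1, Jag2 and Dll4, and the target genes Hey1, Hey2 and Heyl. They were taken by symbol from the 33696 features of the deposited count matrices, and all 10 were present. The study profiled 3 groups, each as 1 library of nuclei: mice kept in room air, mice exposed to cigarette smoke without an abdominal aortic aneurysm (AAA), and mice exposed to cigarette smoke with an AAA. These groups are called room air, smoke and aneurysm. Every mouse was ApoE-/- on the C57Bl/6 strain, a lipoprotein-clearance mutant that develops atherosclerotic plaque, and received a high fat diet during the 20 weeks of exposure. The sources used here do not say how many animals, or of what age and sex, stood behind each library. With 1 library a group, a difference between groups and a difference between libraries cannot be told apart, so no test or p-value is given, and every interval below covers counting error only.

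Notch receptors are membrane proteins cut after they bind a ligand on a neighbouring cell, which frees an intracellular part that enters the nucleus and binds the DNA-binding protein RBPJ to switch on targets such as the Hey repressors. In arteries Dll4, Jag1, Notch1 and Notch4 act in the endothelium, where the pathway supports arterial identity. In the medial layer Notch3 and Notch2 act in smooth muscle cells, where Jag1 on endothelium and on muscle is a known ligand and Heyl and Hey2 are known targets.

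The promoter of Hey2 is shown because Hey2 was the target gene found in both vessel wall lineages, endothelium and smooth muscle. Promoter windows of RefSeq (build GRCm38.p6, 250 bases before to 50 bases after the start site) were present for 8 of the 10 members, and Hey1 and Heyl had none. The letters TGGGAA, the core that RBPJ is known to bind, were searched on both strands, and so was the longer GTGGGAA, which contains it. The Hey2 window lies on the minus strand at chr10:30842734-30843033. It reads as follows, 5′ to 3′, with TGGGAA or its reverse complement in capitals.
Hey2 promoter: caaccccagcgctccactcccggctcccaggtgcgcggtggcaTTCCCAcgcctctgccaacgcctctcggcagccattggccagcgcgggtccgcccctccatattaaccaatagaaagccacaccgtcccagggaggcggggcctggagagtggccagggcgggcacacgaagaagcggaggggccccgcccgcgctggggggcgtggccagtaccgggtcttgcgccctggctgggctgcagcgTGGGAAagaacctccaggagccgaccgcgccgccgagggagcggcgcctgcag
Of the 8 windows, only that of Hey2 held TGGGAA. It held 2 matches, counted here along the printed sequence and not along the chromosome. The reverse complement TTCCCA begins at -207 and TGGGAA at -3 relative to the start site, and both are also GTGGGAA. Over all 32544 promoter windows of the same length, 25.4% held TGGGAA and 6.39% held GTGGGAA. A match describes the letters only and no binding was measured.

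The room air, smoke and aneurysm libraries held 13189, 14859 and 7348 barcodes and 73891039, 117247048 and 15634797 UMIs (unique molecular identifiers, 1 per counted molecule). After filtering, 11022, 14001 and 5707 nuclei remained, with a median of 4058.5, 6225 and 1443 UMIs, so the aneurysm library was the shallowest. The libraries shared 26 to 46 barcodes in pairs. Clusters were named from marker genes as endothelial-like, smooth muscle-like, fibroblast-like, macrophage-like and 6 further classes, and 17.8%, 16.6% and 33.6% of nuclei stayed unnamed. The 10 markers of the smooth muscle list summed to 5197, 5408 and 7193 CPM in smooth muscle-like nuclei and to 253, 348 and 208 CPM in endothelial-like nuclei, and the 11 markers of the endothelial list to 7084, 7486 and 8139 CPM in endothelial-like nuclei. Levels are UMIs of a gene per 1000000 UMIs summed over the nuclei of a class (CPM), so a level mixes the share of nuclei that express a gene with the amount in each. Neither strand handling nor the use of intronic reads is stated, so UMIs of Notch1, Notch3, Notch4 and Dll4 cannot be told apart from those of the annotated genes that overlap them on the opposite strand, nor those of Notch1, Notch2 and Jag2 from genes within them on the same strand.

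Notch3 and Heyl were concentrated in smooth muscle-like nuclei, Notch4, Dll4 and Hey2 in endothelial-like nuclei, Jag1 in both, and Notch2 in every class. Of all UMIs of Notch3 in named and unnamed nuclei, 72.1%, 71.4% and 58.9% were in smooth muscle-like nuclei in the room air, smoke and aneurysm libraries, and of Heyl 75.3%, 78.0% and 69.7%. Endothelial-like nuclei held 88.1%, 83.1% and 56.5% of the UMIs of Notch4 and 90.3%, 84.9% and 60.9% of those of Dll4. The lower aneurysm shares go with a larger part in unnamed nuclei, 36.8% for Notch4 against 5.53% and 7.67% in the other libraries.

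**Figure D1:**
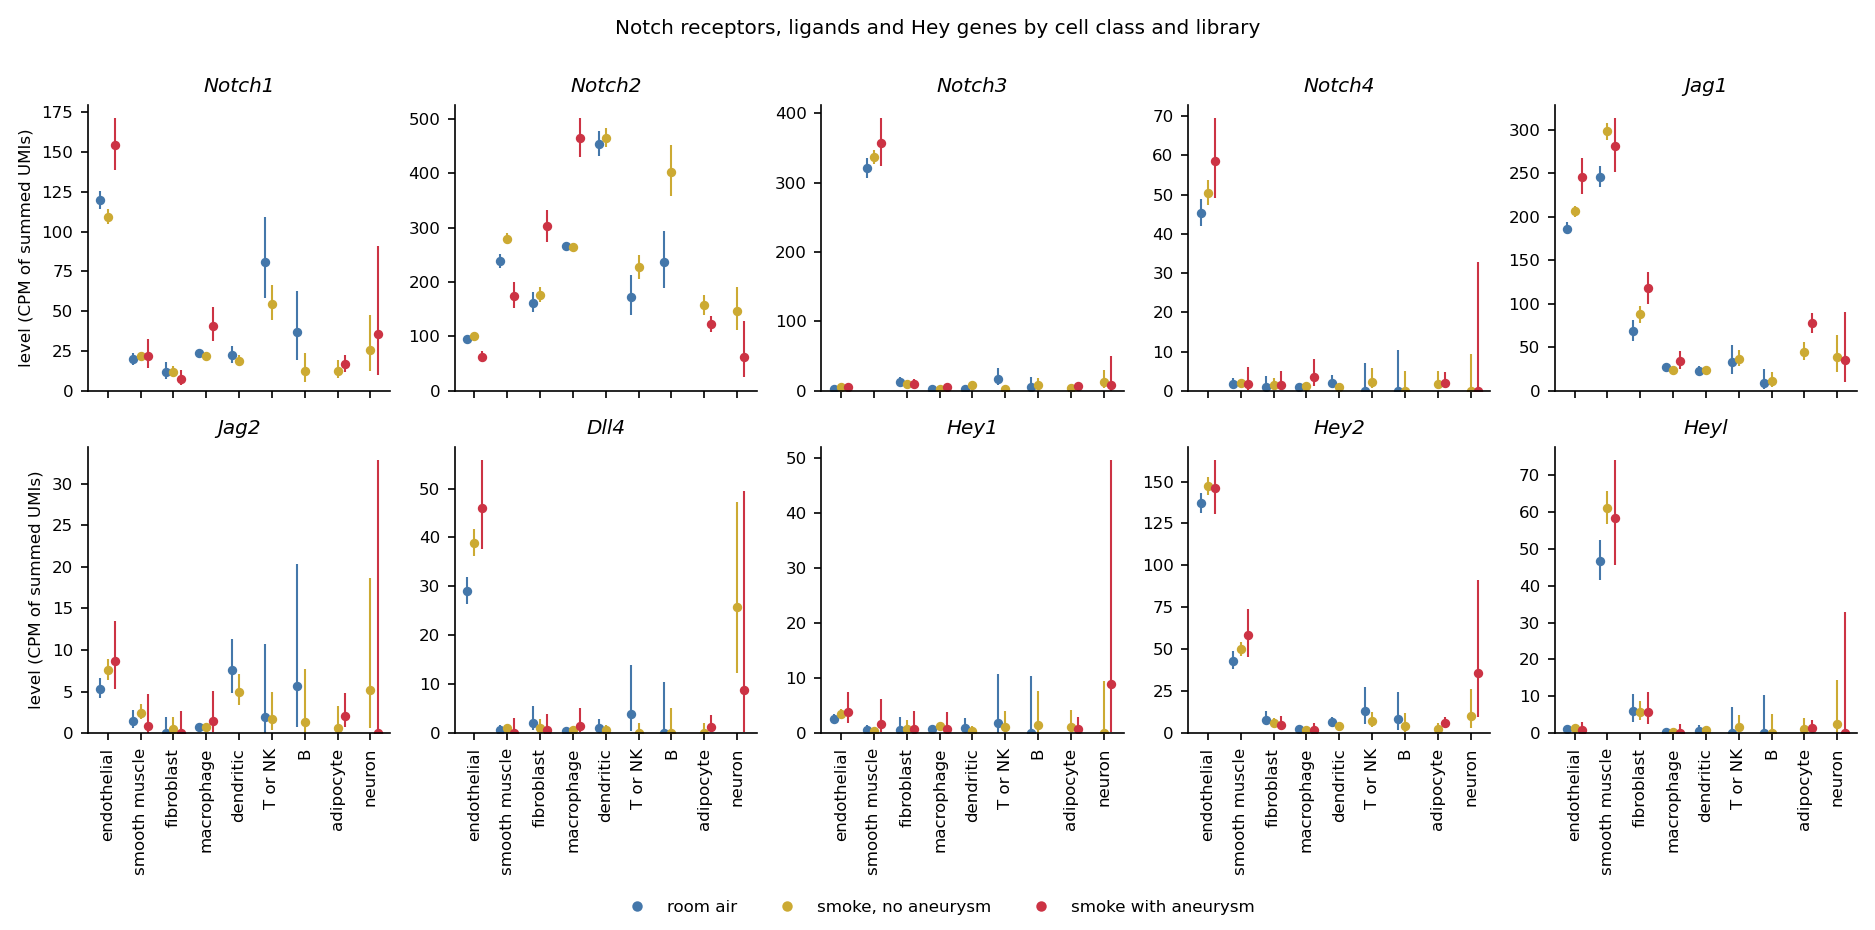
Level of each member (CPM of summed UMIs, linear axis from 0) in 9 named classes with at least 50 nuclei in a library, coloured by library; lines are exact 95% Poisson intervals. Notch3 and Heyl stand out in smooth muscle-like nuclei, Notch4, Dll4 and Hey2 in endothelial-like nuclei, and Notch2 is present throughout.

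Notch3 (chr17:32120820-32166852, minus strand, coordinates here and below from the GENCODE annotation of GRCm38) encodes the receptor of arterial smooth muscle and pericytes. In smooth muscle-like nuclei its level was 321 CPM (95% interval 307 to 336) in room air, 337 (327 to 348) in smoke and 357 (324 to 393) in aneurysm. The 3 intervals overlap. In endothelial-like nuclei it was 2.39, 5.07 and 6.09 CPM, so smooth muscle-like nuclei were 134-fold (97.0 to 191), 66.5-fold (54.5 to 82.0) and 58.7-fold (34.6 to 108) higher within the same library. Fibroblast-like nuclei held 13, 9.28 and 9.99 CPM and macrophage-like nuclei 2.41, 2.06 and 4.92 CPM. At least 1 UMI of Notch3 was found in 52.5%, 60.7% and 35.1% of smooth muscle-like nuclei, whose median depths were 4567, 9229 and 1561 UMIs. After each nucleus was thinned to 1000 UMIs, so that depth no longer differed, the shares were 22.3%, 23.8% and 22.9%. Thinning left out 58, 25 and 103 shallower smooth muscle-like nuclei, 77, 21 and 93 endothelial-like and 33, 10 and 164 macrophage-like nuclei. The same share in macrophage-like nuclei, a class taken here as a background level, was 1.71%, 1.78% and 0.909% before thinning at median depths of 5307, 7928 and 1626 UMIs, and 0.402%, 0.244% and 1.01% after it.

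Within the muscle class Notch3 was uneven. Clusters 8 and 10 made up the class; cluster 8 held 528, 654 and 325 nuclei and cluster 10 held 387, 463 and 136. In cluster 8 Notch3 was at 446, 454 and 399 CPM, and in cluster 10 at 83.6, 79.9 and 249 CPM. Cluster 8 was thus 5.33-fold (4.57 to 6.26) higher in room air and 5.69-fold (5.06 to 6.41) higher in smoke, but only 1.60-fold (1.26 to 2.06) higher in aneurysm. Notch3 and the other pathway genes were left out of the genes that formed the clusters, yet Notch3 was among the 10 leading genes of cluster 8, so this contrast is a description. Cluster 10 had the higher summed contractile level: the 10 markers of the smooth muscle list summed to 7089, 7464 and 10642 CPM there and to 4202, 4474 and 5837 CPM in cluster 8. Its pericyte-list genes Abcc9 (377, 412 and 388 CPM) and Rgs5 (321, 405 and 150 CPM) were present, whereas Higd1b and Vtn, further pericyte markers, were at 0.

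The higher Notch3 of cluster 10 in the aneurysm library was 3.12-fold (2.42 to 3.99) above smoke and 2.98-fold (2.27 to 3.89) above room air. It rested on 83 UMIs in 136 nuclei. By share the gap was small: 24.0%, 29.6% and 19.9% of cluster 10 nuclei held a UMI of Notch3, and 6.41%, 9.32% and 10.1% after thinning. In cluster 8 the aneurysm level was 0.879 times that of smoke (0.784 to 0.983), so the class value of 1.06 (0.955 to 1.17) combined clusters that differed in direction. Cluster 8 made up 57.7%, 58.5% and 70.5% of the class. The class ratio depended on which nuclei the class held: its log2 value was 0.08 as given, and 1.85 with a minimum of 1000 UMIs and 1.69 with the pathway genes kept in the clustering, settings that left 90 and 127 smooth muscle-like nuclei in aneurysm.

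Jag1 (chr2:137081456-137116644, minus strand), a ligand, had the same lean within muscle as Notch3. It was at 327, 388 and 330 CPM in cluster 8 and at 92.1, 101 and 159 CPM in cluster 10, a ratio of 3.55, 3.86 and 2.07. Notch1 was also higher in cluster 8, at 25.0, 26.4 and 28.4 CPM against 9.87, 11.3 and 6.01. The Hey genes and Notch2 did not follow that lean. Heyl was at 43.3, 49.1 and 48.5 CPM in cluster 8 and at 53.6, 87.5 and 84.1 CPM in cluster 10. Hey2 was at 39.3, 44.6 and 48.5 CPM in cluster 8 and at 50.8, 62.5 and 84.1 CPM in cluster 10. Notch2 was at 190, 220 and 145 CPM in cluster 8 and at 331, 412 and 249 CPM in cluster 10, so that cluster 8 held 0.573, 0.533 and 0.583 of the cluster 10 level. In each of the 3 libraries the cluster with the higher Notch3, Notch1 and Jag1 had the lower Heyl, whereas the receptor Notch2 was higher where Heyl was. The Heyl levels of cluster 8 rested on 175, 410 and 41 UMIs, and no interval for its difference from cluster 10 is given here.

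**Figure D2:**
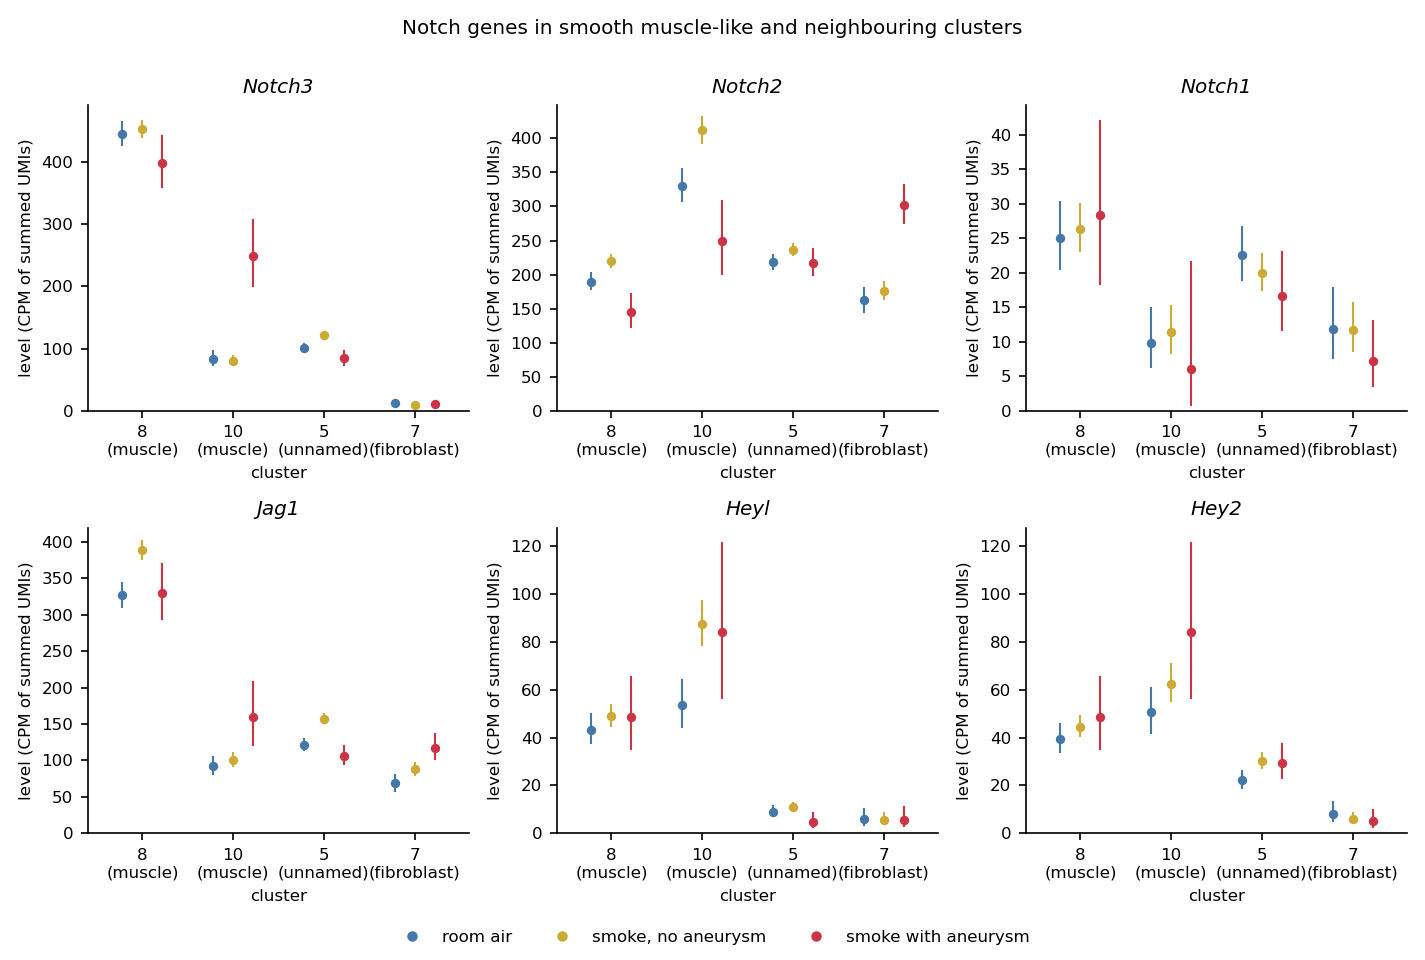
Level (CPM of summed UMIs, linear axis from 0) of 6 members in the smooth muscle-like clusters 8 and 10, the unnamed cluster 5 and the fibroblast-like cluster 7, by library, with exact 95% Poisson intervals. Notch3, Jag1 and Notch1 are higher in cluster 8, and Notch2, Heyl and Hey2 higher in cluster 10.

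An unnamed cluster between muscle and fibroblasts also carried Notch3. Cluster 5, in which fibroblast and muscle markers scored alike and which was led by Grin2a, Grem1 and Ano1, held 101, 121 and 84.3 CPM of Notch3. That was 7.77-fold, 13.1-fold and 8.44-fold above the fibroblast-like cluster 7, while cluster 8 was 4.43-fold, 3.74-fold and 4.74-fold above cluster 5. The smooth muscle marker list summed to 974, 1380 and 1013 CPM in cluster 5 and to 197, 252 and 250 CPM in cluster 7, so muscle markers lay between those clusters as well; their part in the Notch3 of cluster 5 was not tested.

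Notch1 (chr2:26457903-26516663, minus strand) is the receptor of arterial endothelium and of early T cells. It was at 120 CPM (114 to 125), 109 (105 to 114) and 154 (139 to 171) in endothelial-like nuclei of the room air, smoke and aneurysm libraries. The aneurysm value lay above both others with no overlap of intervals. T or NK-like nuclei came next with 80.7 CPM in room air and 54.6 in smoke, and macrophage-like nuclei held 23.5, 21.8 and 40.8 CPM. Smooth muscle-like nuclei held 19.8, 21.7 and 22.1 CPM, and fibroblast-like nuclei 11.9, 11.7 and 7.13 CPM. A UMI of Notch1 was found in 49.1%, 53.4% and 35.8% of endothelial-like nuclei, and in 11%, 10.8% and 15.2% after thinning.

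Notch4 (chr17:34564268-34588503, plus strand), the receptor most restricted to endothelium, was at 45.4, 50.5 and 58.7 CPM in endothelial-like nuclei. Macrophage-like nuclei held 1.03, 1.25 and 3.52 CPM and smooth muscle-like nuclei 1.78, 2.06 and 1.70 CPM. Endothelial-like nuclei were 44.1-fold, 40.2-fold and 16.7-fold above macrophage-like nuclei, and the last of these rests on 5 macrophage UMIs. A UMI of Notch4 was found in 24.3%, 30.3% and 16.9% of endothelial-like nuclei and in 0.68%, 1.20% and 0.758% of macrophage-like nuclei. After thinning, the endothelial-like share was 4.01%, 4.81% and 4.36%.

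Notch2 (chr3:98013527-98150361, plus strand), a receptor used by smooth muscle, B cells and dendritic cells among others, had the widest spread. It was at 454 and 465 CPM in dendritic-like nuclei of the room air and smoke libraries, 1.70-fold (1.61 to 1.80) and 1.76-fold (1.70 to 1.84) above macrophage-like nuclei. Cluster 6 made up 82.1% and 83.1% of the dendritic-like class. It was led by Il1r2, Htr7 and Ctnnd2, with Gpr141, Adgre4 and Ciita also among its 10 leading genes, and whether it mixes cell types was not tested. Macrophage-like nuclei held 267, 264 and 466 CPM and B-like nuclei 237 CPM in room air and 402 in smoke. Smooth muscle-like nuclei held 238, 280 and 175 CPM, fibroblast-like nuclei 162, 176 and 302, and endothelial-like nuclei 94.7, 100 and 62.6. The aneurysm library thus had the highest value of the 3 in macrophage-like and fibroblast-like nuclei and the lowest in smooth muscle-like and endothelial-like nuclei.

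Of the ligands, Jag1 was shared by both wall lineages. It was at 246, 298 and 282 CPM in smooth muscle-like nuclei and at 187, 206 and 246 CPM in endothelial-like nuclei, and muscle was 1.32-fold (1.24 to 1.40) and 1.45-fold (1.38 to 1.51) above endothelium in the first 2 libraries. In aneurysm the ratio was 1.14 with an interval that includes 1 (0.996 to 1.31). Fibroblast-like nuclei held 68.5, 87.9 and 118 CPM and macrophage-like nuclei 27.1, 23.6 and 34.5. The share of nuclei with a UMI after thinning was 18.4%, 19.8% and 26.0% in smooth muscle-like and 16.2%, 17.2% and 22.2% in endothelial-like nuclei, against 48.3%, 64.5% and 37.1%, and 50.7%, 62.0% and 43.8%, before it.

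Dll4 (chr2:119325784-119335962, plus strand), the endothelial ligand of tip cells and arteries, was at 29.1, 38.9 and 46.1 CPM in endothelial-like nuclei and at 0.482, 0.730 and 1.41 CPM in macrophage-like nuclei. Endothelial-like nuclei with a UMI made up 14.5%, 19.5% and 13.2%, against 0.328%, 0.731% and 0.303% of macrophage-like nuclei, and 2.41%, 3.37% and 6.14% after thinning. Outside endothelium, neuron-like nuclei of the smoke library held 25.7 CPM of Dll4, from 10 UMIs in 69 nuclei. Jag2 (chr12:112907819-112929776, minus strand), a further Serrate-type ligand, was at 5.31, 7.58 and 8.70 CPM in endothelial-like nuclei and at 7.61 and 5.00 CPM in dendritic-like nuclei of the first 2 libraries. In aneurysm, 68.9% of its 90 UMIs were in unnamed nuclei and 22.2% in endothelial-like nuclei, so the named class missed most of this ligand there.

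Of the targets, Hey2 (chr10:30832359-30842801, minus strand), a repressor of arterial endothelium and of muscle, was at 137, 147 and 146 CPM in endothelial-like nuclei and at 43.3, 50.2 and 58.5 CPM in smooth muscle-like nuclei. Endothelium was 3.17-fold, 2.94-fold and 2.50-fold above muscle. Macrophage-like nuclei held 2.28, 1.74 and 2.11 CPM. A UMI was found in 47.6%, 59.1% and 32.6% of endothelial-like nuclei against 1.62%, 1.67% and 0.455% of macrophage-like nuclei, and in 13%, 14% and 11.9% of endothelial-like nuclei after thinning. This is the gene whose promoter, printed above, holds both RBPJ-core matches.

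Heyl (chr4:123233556-123249875, plus strand), the Hey-family repressor of smooth muscle, was at 46.8, 61.1 and 58.5 CPM in smooth muscle-like nuclei and at 1.16, 1.33 and 0.870 CPM in endothelial-like nuclei, a ratio of 40.2, 45.9 and 67.3. The last rests on 2 endothelial UMIs and has an interval of 17.9 to 567. Heyl was found in 19.2%, 31.4% and 10.6% of smooth muscle-like nuclei, in 3.85%, 5.95% and 4.19% after thinning, and in 0.164%, 0.337% and 0% of macrophage-like nuclei. In the aneurysm library the 660 macrophage-like nuclei held 0 UMIs, which allows up to 2.11 CPM (3 counts). Hey1 (chr3:8663359-8667256, minus strand), the third repressor of the family, was sparse in every class, at 2.52, 3.43 and 3.91 CPM in endothelial-like nuclei and 0.803, 1.31 and 0.703 CPM in macrophage-like nuclei. Hey1 and Hey2 therefore shared the endothelium as the class with the highest level among the 4 largest classes, whereas Heyl was a muscle gene.

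Within the endothelium the members were graded. Cluster 3, led by Pgm5, Ddah1, Bmp6 and Edn1, was the largest endothelial-like cluster in each library with 1087, 1104 and 387 nuclei. Against cluster 12, led by Dkk2, Slc25a21 and Fgf12, it had higher Hey2 in each library: 148, 163 and 153 CPM against 48.4, 55.3 and 98.1, a ratio of 3.06, 2.94 and 1.56. Notch4 was 2.80 and 2.73 times as high in cluster 3 in room air and smoke and 0.712 times in aneurysm, and Jag1 2.51, 2.10 and 1.13 times. Notch2 had the opposite lean, at 0.450, 0.355 and 0.694 of the cluster 12 level. Markers of macrophage origin moved with cluster 12: the 9 genes of the macrophage list summed to 1281, 1655 and 589 CPM there and to 218, 253 and 185 CPM in cluster 3, and their part in these ratios was not tested. Cluster 11, led by Pkhd1l1, had 380, 539 and 9 nuclei, and its Hey2 of 179 CPM over the 3 libraries was the highest of the endothelial clusters and sub-clusters.

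A small endothelial group had the highest pooled levels of Jag1, Jag2 and Dll4 among the endothelial clusters and sub-clusters. Cluster 13 was split into 7 sub-clusters, again without the pathway genes, and sub-cluster 13-f held 65 nuclei, 13, 19 and 33 by library. It was led by Nebl, Sema3g and Vegfc, and Jag2 was among its 10 leading genes, so its levels are a description. Over the pooled libraries Jag1 was at 1027 CPM (919 to 1144) there against 224 in cluster 3, Jag2 at 149 against 7.38, Dll4 at 152 against 40.5, Notch4 at 190 against 53.8 and Hey1 at 59.1 against 3.52. Hey2 was lower, at 96.4 CPM against 155. Each library had the Jag1 difference: 560, 1315 and 904 CPM in 13-f against 204, 238 and 251 in cluster 3. Jag2 was at 212, 126 and 144 CPM by library. In the aneurysm library sub-cluster 13-g had more Jag2, 172 CPM (112 to 252) against 144 (80.7 to 238), with overlapping intervals. Hey1 in 13-f was at 45.4, 33.0 and 106 CPM by library. The 10 genes of an arterial list summed to 12085 CPM in 13-f and 13112 CPM in cluster 3, but Mecom alone made up 9208 and 9801 CPM of these sums. Efnb2, Unc5b, Sox17 and Sema3g of that list were higher in 13-f than in cluster 3. Mecom, Bmx, Fbln5, Gja4, Gja5 and Cxcr4 were lower. Sox17 and Sema3g had their highest level in 13-f.

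The other sub-clusters differed in which members they held. Sub-cluster 13-a, with 205 nuclei, had the highest level of 4 of the 9 genes of a capillary and tip-cell list (Rgcc, Gpihbp1, Car4 and Cd300lg), while Aqp1 of that list peaked in 13-b, Kcne3 in 13-f and Esm1, Apln and Angpt2 in 13-g. It had Notch4 at 108 CPM, Dll4 at 56.2, Jag2 at 46.2 and Hey1 at 26.1, but Jag1 at 50.2 and Hey2 at 10.0. Sub-cluster 13-d, with 106 nuclei and the highest level of 5 of 7 venous genes (among them Ackr1, Selp and Vcam1), had Notch4 at 6.88 CPM and Hey2 at 3.44 CPM. Sub-cluster 13-b, with 182 nuclei and the highest Nr2f2, a venous gene, had Notch4 at 3.53 and Hey2 at 7.06 CPM, and 13-e, with 99 nuclei, had Notch4 at 25.6 and Hey2 at 2.85 CPM. Sub-cluster 13-c, lymphatic endothelial-like by Prox1, Mmrn1 and Reln, had 0 Notch4 UMIs among 422259, with a 95% upper bound of 8.74 CPM, while Notch1 was at 178 CPM and Notch2 at 182 CPM. Notch1 was thus found at 67.6 CPM or more in all 10 endothelial clusters and sub-clusters, whereas Notch4 was at 6.88 CPM or less in 13-b, 13-c and 13-d and Hey2 at 10.0 CPM or less in 13-a to 13-e. An unnamed sub-cluster, 13-g, had 53 of its 60 nuclei in the aneurysm library and carried Notch4 at 158, Jag1 at 280 and Jag2 at 117 CPM over the pooled libraries. Sub-clusters this small cannot be compared between libraries.

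**Figure D3:**
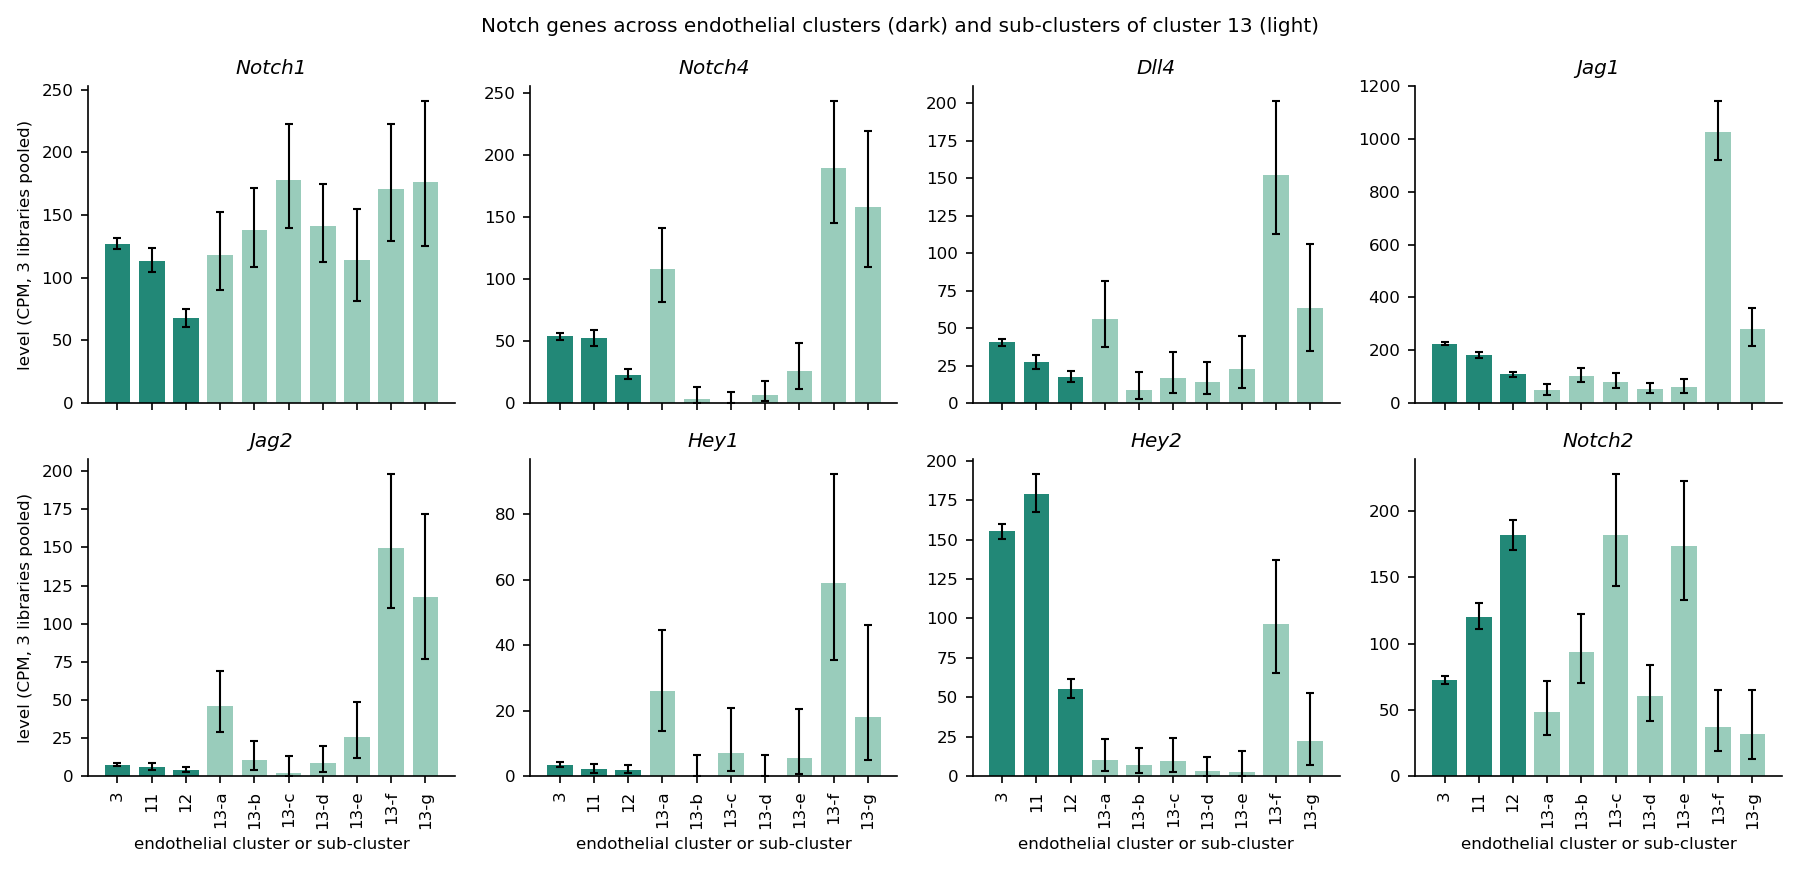
Level of 8 members (CPM over the 3 pooled libraries, linear axes from 0) in endothelial-like clusters 3, 11 and 12 (dark bars) and the sub-clusters of cluster 13 (light bars; 13-c is lymphatic endothelial-like and 13-g unnamed), with exact 95% Poisson intervals. Jag1 reaches 1027 CPM in 13-f against 224 in cluster 3, and Hey2 is high in clusters 3 and 11.

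Smoke was compared with room air among members with at least 20 UMIs over both libraries. In endothelial-like nuclei 1 of 10 members was at least 1.5-fold higher (14.8% of all genes tested were) and 0 lower (3.36%). In smooth muscle-like nuclei 1 of 8 was higher (13.3%) and 0 lower (4.17%), in macrophage-like nuclei 2 of 10 higher (11.1%) and 0 lower (4.85%), and in fibroblast-like nuclei 0 of 6 higher (16.7%) and 0 lower (4.98%). The median log2 ratio of the members was 0.17 in endothelial-like, 0.22 in smooth muscle-like, 0.01 in macrophage-like and -0.03 in fibroblast-like nuclei, against 0.11, 0.08, 0.03 and 0.10 over all genes. Outside these 4 classes, among members with that many UMIs, the ratios past 1.5-fold with an interval that excludes 1 were those of Notch2 in B-like nuclei, 1.70 (1.33 to 2.19), of Notch3 in dendritic-like nuclei, 3.66 (1.66 to 9.55) from 52 and 7 UMIs, and of Notch1 in B-like nuclei, 0.339 (0.128 to 0.858) from 9 and 13 UMIs.

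The endothelial member past 1.5-fold was Notch3, at 5.07 CPM (99 UMIs) in smoke against 2.39 CPM (37 UMIs) in room air, a ratio of 2.12 (1.44 to 3.18). Cluster 12 held 56 of the 99 and 11 of the 37 UMIs, and without that cluster the ratio was 1.39 (0.837 to 2.36). Smaller differences with intervals that exclude 1 followed in several members. Dll4 in endothelial-like nuclei was 1.34-fold (1.19 to 1.51) higher in smoke, Jag2 1.43-fold (1.08 to 1.90) higher, and Notch1 0.912 times (0.857 to 0.972). The endothelial ratio was 1.11 (1.01 to 1.23) for Notch4, 1.11 (1.05 to 1.16) for Jag1 and 1.07 (1.02 to 1.14) for Hey2. These lie near the median of all genes in the class, a log2 ratio of 0.11. With median-of-ratios scaling, which shifts all ratios of the class alike, their log2 values were 0.047, 0.038 and -0.0027. Jag1 was 1.28-fold (1.04 to 1.59) higher in fibroblast-like nuclei and 0.874 times (0.8 to 0.954) in macrophage-like nuclei. In smooth muscle-like nuclei Notch2 was 1.17-fold (1.10 to 1.25) and Hey2 1.16-fold (1.00 to 1.34) higher. In T or NK-like nuclei Notch2 was at 1.32 (1.04 to 1.67) and Notch1 at 0.677 (0.467 to 0.996). In smooth muscle-like nuclei Jag1 was 1.21-fold (1.14 to 1.29) and Heyl 1.3-fold (1.14 to 1.5) higher in smoke, and Heyl was 1.63-fold (1.32 to 2.04) higher in cluster 10 and 1.13-fold (0.948 to 1.36) in cluster 8. In macrophage-like nuclei Dll4 and Hey1 passed 1.5-fold at levels near 1 CPM, with ratios of 1.51 (0.816 to 2.96) and 1.63 (1.02 to 2.69). Jag2 in smooth muscle-like nuclei, at 1.69 (0.784 to 4.06), rested on 30 and 9 UMIs.

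Aneurysm was compared with smoke in the same way. In endothelial-like nuclei 0 of 10 members were at least 1.5-fold higher (10.5% of all genes tested) and 2 lower (22.5%), in smooth muscle-like nuclei 0 of 8 higher (12.3%) and 2 lower (20.5%), and in fibroblast-like nuclei 1 of 6 higher (14.7%) and 1 lower (19.9%). The endothelial-like class leaves out cluster 13, which held 503 nuclei in aneurysm and 258 in smoke. The 0 of 10 belongs to the main setting. Over the alternatives the endothelial-like log2 ratio ran from -0.14 to 1.40 for Hey1 and 0.018 to 1.55 for Jag2. For Dll4 it ran from 0.045 to 0.81 and for Notch3 from -0.95 to 1.26. In macrophage-like nuclei 6 of 9 were higher (22% of all genes tested) and 1 lower (16%). The count of 6 became 2 after thinning, 4 with a minimum of 50 UMIs and 5 without cluster 16. Jag2 and Dll4 did not reach the minimum of 50 UMIs, so they were no longer counted there. The 5 without cluster 16 were another set: Notch2 (0.993) and Jag2 (0 UMIs in aneurysm) dropped out and Jag1 (1.77, 1.23 to 2.46) entered. The share of all genes under these settings is not given here. The median log2 ratio of the members was 0.21, -0.07, 0.90 and 0.05 in endothelial-like, smooth muscle-like, macrophage-like and fibroblast-like nuclei, against -0.05, -0.07, 0.04 and 0.01 over all genes. Of the 6 macrophage members, Notch3, Notch4, Jag2 and Dll4 rested on 7, 5, 2 and 2 UMIs in the aneurysm library, and their ratios of 2.39 (0.939 to 5.09), 2.80 (0.882 to 6.87), 2.03 and 1.93 have intervals that include 1. The smooth muscle marker list summed to 41.6 CPM in macrophage-like nuclei of smoke and 103 CPM in those of aneurysm (9 of 10 of its genes had a UMI there, Pln none), and the endothelial list to 142 and 181 CPM (11 of 11 genes); the part of RNA from other cells in these low levels was not tested.

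Notch2 differed by over 1.5-fold between aneurysm and smoke in all 4 of these classes, each time with an interval that excludes 1. Its aneurysm to smoke ratio was 1.77 (1.63 to 1.91) in macrophage-like and 1.72 (1.52 to 1.95) in fibroblast-like nuclei, and 0.625 (0.524 to 0.740) in endothelial-like and 0.624 (0.540 to 0.719) in smooth muscle-like nuclei. The direction was the same under every alternative processing in the last 3 of these classes, but the ratio was under 1.5-fold in fibroblast-like nuclei after thinning, with 15 components, when each library was clustered alone and without the highest Scrublet scores (doublet scores), where its log2 value was 0.19 to 0.49. It was also under 1.5-fold in smooth muscle-like nuclei with 15 components, when each library was clustered alone and without those scores (-0.52 each), and in endothelial-like nuclei after thinning (-0.30) and without those scores (-0.40). In muscle the lower value was present in both clusters, with 0.661 in cluster 8 and 0.605 in cluster 10. In endothelium it was 85.0 CPM against 194 in cluster 12 and 59.0 against 68.8 in cluster 3, and without cluster 12 the class ratio was 0.742 (0.609 to 0.896). Macrophage markers summed to 365 CPM in smooth muscle-like nuclei of aneurysm against 456 in smoke. In endothelial-like nuclei they summed to 241 against 520, and both differences had the same direction as Notch2. In smoke the Notch2 level of macrophage-like nuclei, 264 CPM, was below that of smooth muscle-like nuclei, 280 CPM. It was above that of endothelial-like nuclei, 100 CPM. In cluster 10 the macrophage markers summed to 493 against 516 CPM. In fibroblast-like nuclei they summed to 176 against 493 CPM, the opposite direction to Notch2 there. All 9 macrophage markers had a UMI in these 3 classes in every library, and their part in the Notch2 ratios was not tested.

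In macrophage-like nuclei the libraries differed in the make-up of the class as well as in Notch2. Cluster 16, led by F13a1, Cd163, Mrc1 and Clec10a, was 2.25% of macrophage-like nuclei in room air, 3.47% in smoke and 51.7% in aneurysm. Its Notch2 level was 752, 824 and 792 CPM, against 287, 281 and 279 in cluster 0, 306, 285 and 247 in cluster 1 and 211, 200 and 236 in cluster 4. Within each of these clusters the libraries differed by less than the class did, and without cluster 16 the aneurysm to smoke ratio of Notch2 was 0.993 (0.864 to 1.14). That setting was added after seeing the data and left 319 aneurysm nuclei. The part of the make-up in the class difference was not tested. The macrophage ratio of Notch1 was 1.87 (1.41 to 2.43) with cluster 16 and 1.63 (1.09 to 2.33) without it.

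**Figure D4:**
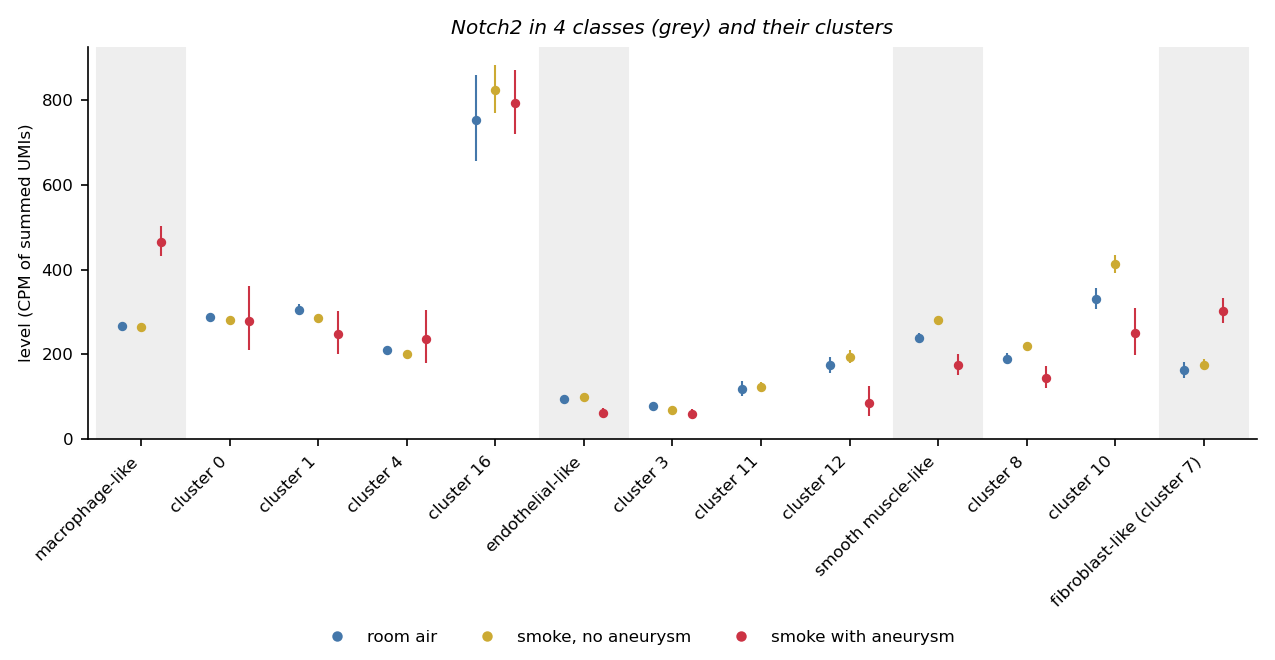
Notch2 level (CPM of summed UMIs, linear axis from 0) by library in 4 classes (grey bands) and in the clusters that make them up, with exact 95% Poisson intervals; units with under 50 nuclei in a library are not drawn. The macrophage-like aneurysm value of 466 CPM stands above 264 in smoke, while within clusters 0, 1, 4 and 16 the libraries differ by less.

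Rbpj, which encodes the DNA-binding partner of all Notch receptors, was among the 10 leading genes of cluster 16 although it had been left out of the genes that formed the clusters; it is named here after its values were seen. Rbpj was at 10401, 9322 and 10189 CPM in cluster 16 of the room air, smoke and aneurysm libraries. In cluster 0 Rbpj was at 394, 341 and 702 CPM, in cluster 1 at 732, 544 and 906 CPM, and in cluster 4 at 393, 300 and 402 CPM. The macrophage-like class had 559, 544 and 4462 CPM, an aneurysm to smoke ratio of 8.21 (7.99 to 8.43). Rbpj was also 1.81-fold (1.63 to 2.01) higher in fibroblast-like nuclei of aneurysm, at 453 against 250 CPM, and 1.44-fold (1.26 to 1.63) in smooth muscle-like nuclei, at 238 against 165 CPM. In endothelial-like nuclei it was at 151 against 162 CPM. Whether intronic reads or reads shared with related sequences add to the Rbpj levels was not tested. Cluster 16 was 1.32% of all nuclei in smoke and 5.98% in aneurysm. The part of its RNA in the Rbpj of other clusters and classes was not tested either. The macrophage cluster with the most Notch2 was thus the one with the most Rbpj in each library, a description of 1 cluster chosen after its values were seen.

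Notch1 and Jag1 also differed between aneurysm and smoke in several classes. Notch1 in endothelial-like nuclei was 1.41-fold (1.26 to 1.58) higher in aneurysm than in smoke, and 1.3-fold (1.15 to 1.47) without cluster 12. Jag1 was 1.19-fold (1.09 to 1.3) higher in endothelial-like and 1.34-fold (1.10 to 1.62) higher in fibroblast-like nuclei, 1.46-fold (1.07 to 1.94) in macrophage-like and 1.73-fold (1.32 to 2.28) in adipocyte-like nuclei, and 0.944 times in smooth muscle-like nuclei. Within cluster 3 alone the endothelial ratios were 1.26 (1.11 to 1.43) for Notch1, 1.06 (0.958 to 1.16) for Jag1, 0.966 (0.783 to 1.18) for Notch4, 0.933 (0.739 to 1.17) for Dll4 and 0.941 (0.831 to 1.06) for Hey2. In cluster 12 they were 2.44 (1.72 to 3.39) for Notch1, 3.70 (2.23 to 5.93) for Notch4, 3.35 (1.75 to 6.06) for Dll4 and 1.77 (1.16 to 2.61) for Hey2, from 15 to 44 UMIs in aneurysm. The macrophage list in cluster 12 was at 589 CPM in aneurysm and 1655 CPM in smoke, and its part in these ratios was not tested. The remaining members past 1.5-fold rested on few UMIs: Heyl in endothelial-like nuclei (0.653, 2 UMIs), Jag2 in smooth muscle-like nuclei (0.343, 1 UMI), Hey1 in macrophage-like nuclei (0.537, 1 UMI) and Notch1 in fibroblast-like nuclei (0.608, 0.272 to 1.23).

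**Figure D5:**
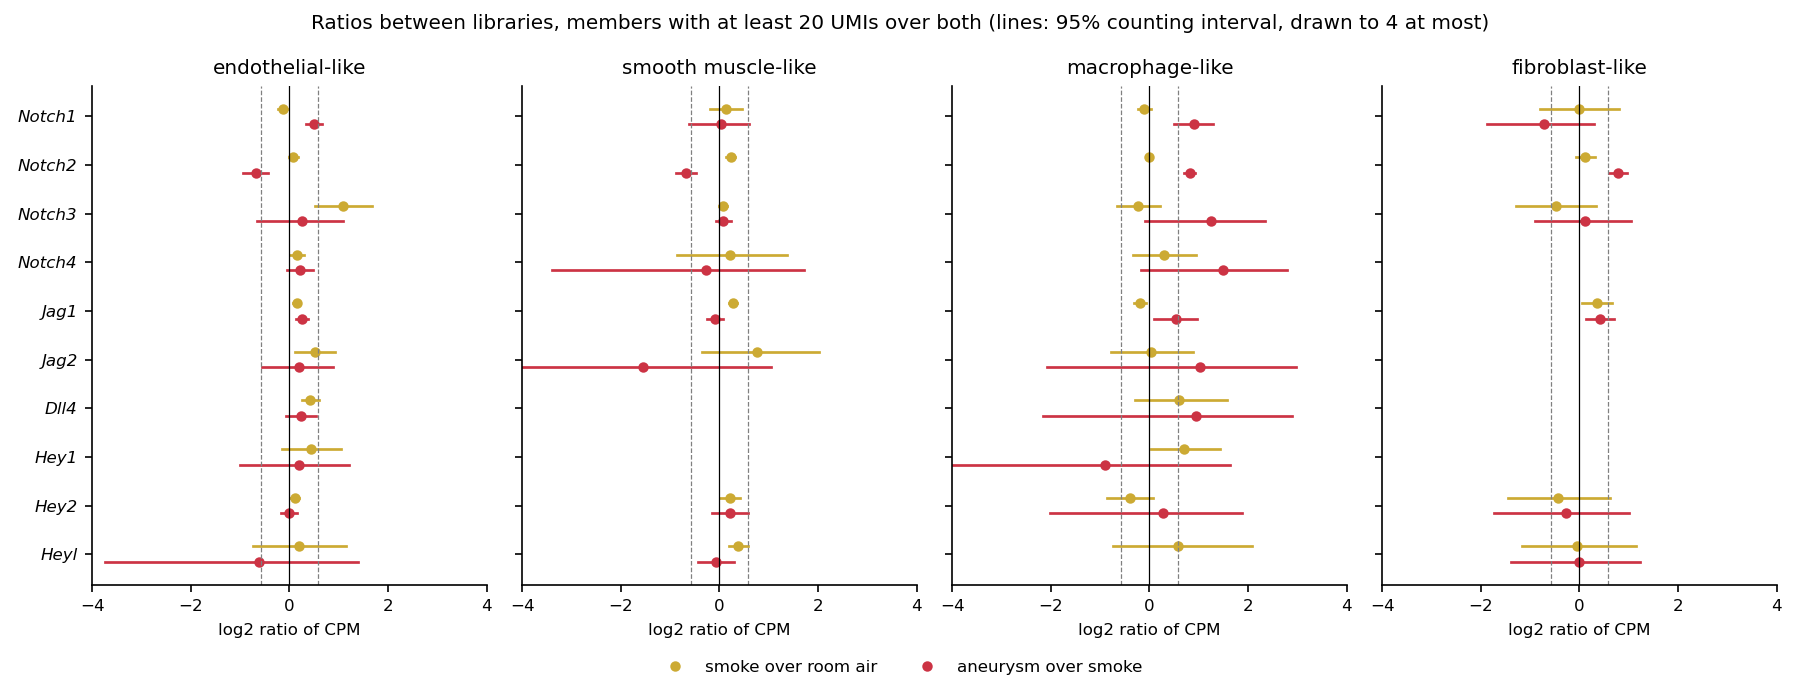
Log2 ratio of CPM for each member with at least 20 UMIs over both libraries, smoke over room air and aneurysm over smoke, in 4 classes; lines are exact 95% counting intervals, drawn to 4 on either side at most, and dashed lines mark 1.5-fold. Notch2 lies right of 0 in macrophage-like and fibroblast-like nuclei and left of 0 in the other classes in the aneurysm comparison.

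Further genes of the pathway were taken from lists of other ligands, receptor maturation, cleavage, the nuclear complex, ubiquitin ligases with trafficking, and other targets. In endothelial-like nuclei 7 of 52 measured were at least 1.5-fold higher and 1 lower in smoke than in room air, and 2 of 51 higher and 9 lower in aneurysm than in smoke. In smooth muscle-like nuclei the counts were 7 of 50 higher and 1 lower, then 1 of 49 higher and 11 lower. For genes higher in smoke and lower in aneurysm these shares lie near those of all genes given above for the same comparisons, and for genes higher in aneurysm they lie below them. In endothelial-like nuclei 0 of 6 receptor maturation genes and 0 of 13 nuclear complex genes passed 1.5-fold in either comparison. Of the 9 cleavage genes, which encode the sheddases and gamma-secretase, 2 were higher in smoke and 3 lower in aneurysm. Of all genes tested in this class, 14.8% were higher and 3.36% lower in smoke, and 10.5% higher and 22.5% lower in aneurysm. These short lists were not tested against those shares.

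Psenen, a gamma-secretase subunit, was 2.03-fold (1.49 to 2.80) higher in endothelial-like nuclei of smoke than of room air, at 7.63 against 3.75 CPM. It was 0.342 times the smoke level (0.123 to 0.762) in aneurysm, at 2.61 CPM from 6 UMIs. Aph1a and Aph1c, also of that complex, were at 0.528 and 0.332 times the smoke level in aneurysm. Hes1, a target repressor, was 2.23-fold (1.66 to 2.95) higher in endothelial-like nuclei of aneurysm, at 27.4 against 12.3 CPM, and 1.69-fold (1.16 to 2.51) higher in smooth muscle-like nuclei of smoke than of room air. Neurl3, a ubiquitin ligase of the Neuralized family, was 1.67-fold (1.46 to 1.92) higher in endothelial-like and 1.82-fold (1.21 to 2.80) higher in smooth muscle-like nuclei of smoke. Hes6, a Hes-family gene, was 2.05-fold and 2.41-fold higher there. In smooth muscle-like nuclei of aneurysm Neurl3 was at 0.278, Aph1a at 0.202 and Snai2, a repressor gene, at 0.368 times the smoke level, from 2 to 5 UMIs.

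The genes whose levels were most like each member were ranked by Pearson correlation of log2(CPM + 1) over 22 class-by-library points, which share libraries and depth, among 13021 genes. For Notch3 these were Ctnna3 (r = 0.966), Tafa1 (0.942) and Myom1 (0.939), and for Heyl Jph2 (0.947), Fat1 (0.944) and Smtn (0.943), the gene of smoothelin. For Notch4 they were Plek2 (0.959), Bcl6b (0.955) and AU021092 (0.953), for Dll4 Cyyr1 (0.934), Lama3 (0.929) and Nova2 (0.924), and for Hey2 Sorbs2 (0.967), Ddah1 (0.941) and Shroom4 (0.940). Jag1 was most like Mprip (0.933), Plcb4 (0.918) and Hoxb5 (0.916), Notch1 like Tbc1d30 (0.910), Klhl3 (0.891) and Fryl (0.871), and Notch2 like Pstpip2 (0.888), Ccl2 (0.863) and Fgd2 (0.852). Jag2 was nearest to Marcksl1 (0.801), Nck2 (0.797) and Cbfa2t3 (0.782) and Hey1 to Rp1 (0.857), Upp1 (0.839) and Ppm1f (0.826). Among the members themselves the highest value was that of Notch3 with Heyl (r = 0.878), followed by Jag1 with Hey2 (0.733) and Jag1 with Heyl (0.726).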

How the data were processed

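Nuclei of frozen abdominal aorta were isolated with anti-nucleus beads and sequenced in 3 droplet libraries, 1 per group, per the labels' protocols. The deposited matrices hold UMI counts per gene and barcode; their headers name cellranger 8.0.1, per the file headers, whereas Cell Ranger 2.2.0, STAR and mm10 are named per the submitters' processing notes. The sources used here do not give intron and strand settings. The lowest barcode total was 500 UMIs in each library.

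Nuclei with at least 500 UMIs and 300 genes and under 5% mitochondrial UMIs were kept. Counts were scaled to 10000 per nucleus and logged, and 2000 variable genes were chosen. Members and pathway genes were then taken out, which left 1995 genes. Arterial, venous and capillary genes that were not also on a pathway list were not taken out. The libraries were clustered together (30 principal components, 20 neighbours, Leiden resolution 1, and cluster 13 again at 0.5) with python 3.11.15, scanpy 1.11.5, scipy 1.17.1 and numpy 2.4.6. Clusters were named by marker score, with thresholds set after the data were seen. Scrublet marked 367, 404 and 1 nuclei as doublets; in the aneurysm library that share is too low for the caller to have worked, so all nuclei were kept and leaving out the top 5% of scores was an alternative. UMIs were summed per class and library. CPM has exact Poisson, shares Clopper-Pearson and ratios conditional binomial intervals at 95%. Thinning drew 1000 UMIs per nucleus and left out shallower ones. Ratios needed 20 UMIs over both libraries and 50 nuclei in each; a count of 0 was read against 3 counts. No count model was fitted. Only the ratio, its interval and the 1.5-fold cutoff were tested on simulated data. These were Poisson counts for summed endothelial-like nuclei, so they hold counting error and no spread between nuclei or libraries. Clustering, naming, thinning and likeness were not simulated.

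All 10 members are named, together with up to 3 pathway genes per direction in endothelial-like and smooth muscle-like nuclei (at least 1.5-fold, interval excluding 1, at least 30 UMIs in the higher library, ranked by the bound nearest 1) and the 3 genes most like each member (at least 200 UMIs; predicted Gm and Rik, mitochondrial and ribosomal protein genes left out). The members and lists were chosen with earlier results of these data known. Another 10 settings were tried, and leaving out clusters 16, 12 or 10 was added after seeing the data.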

Additional observations from a re-analysis of the deposited data

Results flagged for a closer look

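Notch2 was picked out because its ratio between libraries pointed in opposite directions in different classes, each by at least 1.5-fold and with an interval that excludes 1. Aneurysm over smoke it was 1.77 in macrophage-like and 1.72 in fibroblast-like nuclei, but 0.625 in endothelial-like, 0.624 in smooth muscle-like and 0.424 in neuron-like nuclei, the last from 7 and 57 UMIs. Aneurysm over room air it was 1.74 in macrophage-like and 1.87 in fibroblast-like nuclei and 0.661 in endothelial-like nuclei; in smooth muscle-like nuclei it was 0.733 (0.630 to 0.849), short of 1.5-fold. The difference between classes was not tested, since each group is 1 library.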

How the results depend on the processing

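Over 67 member ratios and 13 alternatives there were 672 values. Of these, 591 lay within the interval of the reported ratio and 80 outside it, and the remainder was counted in neither. In 34 of the 67 ratios at least 1 alternative gave another sign, 78 values in all, and 1 of these was for a ratio past 1.5-fold with an interval that excludes 1: Notch2 in macrophage-like nuclei, aneurysm over smoke, was -0.0096 on the log2 scale without cluster 16. Over its alternatives the log2 ratio of Notch2 ran from -0.88 to -0.30 in endothelial-like, -0.78 to -0.52 in smooth muscle-like and 0.19 to 0.79 in fibroblast-like nuclei, and that of Notch1 in endothelial-like nuclei from 0.38 to 0.56. Notch3 in smooth muscle-like nuclei, 0.08 as reported, was 1.85 with a minimum of 1000 UMIs, 1.69 with pathway genes kept in the clustering and 0.73 with libraries clustered one by one; the first 2 settings named only 90 and 127 aneurysm nuclei smooth muscle-like. Counts of members past 1.5-fold moved as follows, and the cause was not tested. The members measured, and which of them passed, could differ between settings, and the share of all genes under each is not given. Smoke over room air, higher: in endothelial-like nuclei 0 at resolution 2 and one by one and 2 without cluster 12; in smooth muscle-like nuclei 0 without filters, with 15 components, without top Scrublet scores, with a minimum of 50 UMIs and without cluster 10, and 2 one by one and thinned; in macrophage-like nuclei 0 with a minimum of 1000 UMIs, without filters, with 15 components, one by one and thinned, and 1 at resolution 2, with median-of-ratios scaling and without cluster 16; in fibroblast-like nuclei 1 with 15 components. Lower: 1 in fibroblast-like nuclei at 1000 UMIs, without filters and with pathway genes kept, and 2 in macrophage-like nuclei thinned. Aneurysm over smoke, higher: in endothelial-like nuclei 1 (1000 UMIs, Scrublet, thinned), 2 (no filter, 15 components, one by one, genes kept) and 3 (resolution 2); in smooth muscle-like nuclei 2 (1000 UMIs, genes kept) and 1 (one by one); in macrophage-like nuclei 2 (thinned), 4 (50 UMIs), 5 (1000 UMIs, one by one, without cluster 16) and 7 (15 components, genes kept, Scrublet); in fibroblast-like nuclei 2 (1000 UMIs, one by one) and 0 (15 components, Scrublet, thinned). Lower: in endothelial-like nuclei 1 (one by one, Scrublet, median-of-ratios, 50 UMIs, without cluster 12) and 0 (thinned); in smooth muscle-like nuclei 1 (15 components, one by one, Scrublet, thinned, 50 UMIs, without cluster 10); in macrophage-like nuclei 0 (no filter, 15 components, resolution 2, one by one, thinned, without cluster 16); in fibroblast-like nuclei 0 (one by one, Scrublet, thinned). Median-of-ratios scaling shifted all log2 ratios of smoke over room air by -0.11 in endothelial-like and -0.10 in fibroblast-like nuclei and by less elsewhere. No paired analysis was possible because each group has 1 library. The aneurysm library's depth limits its values for Jag2, Dll4, Hey1 and Heyl outside their main class to a few UMIs.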
